A study of Mus musculus with 2 samples.

Results

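The Mir106b-25 and Mir106a-363 clusters are the paralogues of the better known Mir17-92 cluster, and they are described here in the embryonic mouse liver. They comprise 9 microRNA genes of the 1973 that were counted. Mir106b, Mir93 and Mir25 lie in Mcm7, and Mir106a, Mir18b, Mir20b, Mir19b-2, Mir92-2 and Mir363 lie together on the X chromosome. The members were chosen by their genomic cluster and symbol, not by a measured value, though earlier results of these data were known. The data are microRNA-seq counts of RNA under 30 nucleotides from whole livers of B6NCrl embryos at day 11.5. All libraries belong to 1 untreated group of healthy tissue, with 2 biological replicates, each a pool of embryos of both sexes. Replicate 1 pooled 109 embryos, and the labels give no pool size for replicate 2. Both pools are separate biosamples that carry the same donor entry.

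A microRNA gene is transcribed into a long primary RNA, from which a hairpin is cut and then trimmed to a short duplex. One strand of the duplex, the guide, is loaded into Argonaute and pairs with messenger RNAs mainly through its seed, bases 2 to 8. Genes of a cluster share a primary transcript, and paralogous clusters carry hairpins with the same seeds. The Mir17-92 cluster is known as a Myc target that favours proliferation and survival, and its loss in mice is lethal around birth. Mice without Mir106b-25 or Mir106a-363 are viable, while loss of Mir106b-25 together with Mir17-92 is lethal in the embryo. Mcm7, the host of Mir106b-25, encodes a subunit of the replicative helicase and is transcribed in dividing cells.

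The guide arms show how the members relate to each other and to Mir17-92, and they are given first because the counts below are read by seed. All 9 members matched a RefSeq entry (build GRCm38.p6). Each sequence runs 5′ to 3′ with the seed in capitals. The arm taken as guide is the one textbook knowledge gives as the more abundant, since the counts are per gene and do not separate arms. Those with the miR-17 seed were, from Mir106b-25 (chromosome 5), Mir106a-363 (chromosome X) and Mir17-92 (chromosome 14):
miR-106b-5p: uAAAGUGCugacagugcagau
miR-93-5p: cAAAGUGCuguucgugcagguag
miR-106a-5p: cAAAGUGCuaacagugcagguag
miR-20b-5p: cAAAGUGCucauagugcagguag
miR-17-5p: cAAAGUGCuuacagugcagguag
miR-20a-5p: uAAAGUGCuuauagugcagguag
Those with the miR-18 seed, from Mir18b and from Mir18 of Mir17-92, were:
miR-18b-5p: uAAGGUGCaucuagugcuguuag
miR-18a-5p: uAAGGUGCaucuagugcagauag
Those with the miR-19 seed, from Mir19b-2 and Mir19b-1 alike and from Mir19a, were:
miR-19b-3p: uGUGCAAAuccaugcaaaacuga
miR-19a-3p: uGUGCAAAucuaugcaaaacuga
Those with the miR-92 seed, from Mir25, from Mir363 and from Mir92-2 and Mir92-1 alike, were:
miR-25-3p: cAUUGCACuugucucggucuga
miR-363-3p: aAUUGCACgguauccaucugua
miR-92a-3p: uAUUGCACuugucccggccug

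The paralogues within a seed group differed outside the seed. Positions are counted from 1 at the 5′ end, without gaps, and each change is written from the Mir17-92 guide to the member's guide. The guide of Mir106a differed from that of Mir17 at 1 of 23 positions (U10A). That of Mir20b differed from that of Mir20a by U1C and U10C. The guide of Mir93 differed from that of Mir17 by U10G, A11U, C12U and A13C. That of Mir106b has 21 bases, against 23 for Mir17, and differed at 3 of the shared positions (C1U, U10G and G20A). The Mir18b guide differed from that of Mir18 by A18U and A20U, and the Mir25 guide from that of Mir92-1 by U1C, C14U and C18U. Mir363 stood furthest from its paralogue, with 11 differences to the Mir92-1 guide over 21 positions, none of them in the seed.

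In these livers the Mir106b-25 cluster was the strongly counted one of the pair, led by Mir93 and Mir106b. Levels are counts per 1000000 assigned counts (CPM) on the strand of the gene, given as mean ± SD over both libraries (n = 2). The cluster held 2.22 ± 0.306% of all assigned counts. The Mir106a-363 cluster held 0.140 ± 0.0195%, and the 9 members together 2.36 ± 0.326%. All 9 members reached the detection minimum of 10 counts in each library, as did 347 of all counted genes.

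Depth sets how small a level could be seen. Replicate 1 had 3344673 assigned counts and replicate 2 had 1584499, so a count of 0 allows up to 0.897 CPM and 1.89 CPM. Every member stood above these limits. Reads mapping to several places, 22.0% and 22.6% of all reads, are listed apart and belong to no gene. The liver label was checked against markers: the hepatocyte microRNA Mir122 had 30679 and 34487 CPM in replicates 1 and 2. Markers of other cells were counted as well, among them the endothelial Mir126a at 57443 and 80050 CPM and the erythroid Mir451a at 7495 and 9793 CPM. In a whole organ, fewer cells of a type and less RNA per cell cannot be told apart.

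The 3 genes of Mir106b-25 lie within 498 bases of chromosome 5, between positions 138165321 and 138165818 of mm10 on the minus strand. They sit in intron 13 of the 15-exon Mcm7 transcript of GENCODE M21, which also has 1 retained-intron transcript with an exon over Mir93 and Mir25. In the direction of transcription the order is Mir106b, Mir93, Mir25, with 126 and 118 bases between the hairpins. Mir93 (ENSMUSG00000065527.1, chr5:138165523-138165610), a miR-17 type microRNA that targets the cell cycle inhibitor Cdkn1a, stood at 16236 CPM in replicate 1 and at 10570 CPM in replicate 2 (mean 13403 ± 4006). Its rank among all genes was 16 in replicate 1 and 27 in replicate 2. Mir106b (ENSMUSG00000065514.1, chr5:138165737-138165818), of the same seed and with the same known target, had 7297 and 8668 CPM (mean 7982 ± 969), at ranks 37 and 34. Mir93 stood above Mir106b in both libraries, and their ranges did not overlap. Mir25 (ENSMUSG00000065394.1, chr5:138165321-138165404), whose seed is that of miR-92, had 829 and 793 CPM (mean 811 ± 25.5), at ranks 126 and 123. It was the lowest of the cluster in both libraries, at 11.4% of the Mir106b count in replicate 1 and 9.15% in replicate 2.

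The 6 genes of Mir106a-363 span 875 bases of chromosome X, from 52741693 to 52742567 on the minus strand, in the order Mir106a, Mir18b, Mir20b, Mir19b-2, Mir92-2, Mir363. M21 has the last 5 bases of an exon of the noncoding gene Kis2 over the start of Mir106a and no other gene over the rest. Mir106a (ENSMUSG00000065456.1, chrX:52742503-52742567), which leads the cluster in order and in level, had 561 and 393 CPM (mean 477 ± 119). Mir20b (ENSMUSG00000076041.1, chrX:52742113-52742192), the other gene with the miR-17 seed, had 383 and 235 CPM (mean 309 ± 104). Both were higher in replicate 1. Mir363 (ENSMUSG00000070106.1, chrX:52741693-52741767), the last gene and a carrier of the miR-92 seed, had 333 and 356 CPM (mean 344 ± 16.4). Mir92-2 (ENSMUSG00000065613.1, chrX:52741838-52741928) had 179 and 230 CPM (mean 204 ± 35.8). Mir18b (ENSMUSG00000077111.2, chrX:52742331-52742413), the miR-18 copy, was low at 67.3 CPM (95% exact Poisson interval 58.8 to 76.7) in replicate 1 and 34.1 CPM (25.6 to 44.5) in replicate 2. Mir19b-2 (ENSMUSG00000065473.1, chrX:52741983-52742066) was the lowest member, with 57 and 27 reads, which is 17.04 CPM in each library (12.9 to 22.1 in replicate 1 and 11.2 to 24.8 in replicate 2). Intervals and floors cover counting error only, since reads carry no molecular identifiers that the sources describe.

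By mean CPM the members ranked Mir93, Mir106b, Mir25, Mir106a, Mir363, Mir20b, Mir92-2, Mir18b, Mir19b-2. The order of Mir363 and Mir20b was not resolved, because Mir20b was the higher of them in replicate 1 and Mir363 in replicate 2. No other pair of neighbours had overlapping ranges over the libraries. In replicate 2, however, the counting intervals of Mir106a and Mir363 overlapped, as did those of Mir20b and Mir92-2, so those steps rest on replicate 1. The mature products of the 15 genes in the 3 clusters have 21 to 24 bases, and CPM was not divided by length. Per 100 bases of hairpin the order of the members was the same.

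**Figure D1:**
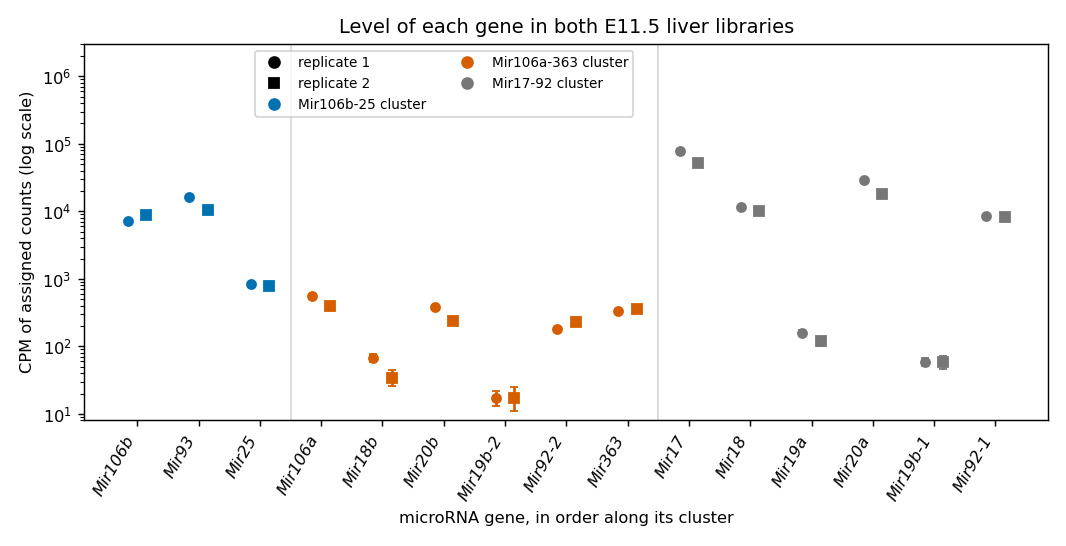
Level of each gene in CPM of assigned counts (log axis) for the Mir106b-25, Mir106a-363 and Mir17-92 clusters, with a circle for replicate 1, a square for replicate 2 and bars for the 95% exact Poisson interval. The Mir106a-363 genes lie between 17.04 and 561 CPM, all below Mir25, the lowest gene of Mir106b-25.

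Within each cluster the counts were uneven along the transcript. Mir93 held 66.6% of the Mir106b-25 counts in replicate 1 and 52.8% in replicate 2, and Mir106b held 30.0% and 43.3%. In Mir106a-363, Mir106a held 36.4% and 31.1% of the cluster and Mir363, at its other end, held 21.6% and 28.1%. Mir19b-2, between them, held 1.11% and 1.35%. Level did not follow the order of the hairpins in any of the 3 clusters.

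**Figure D2:**
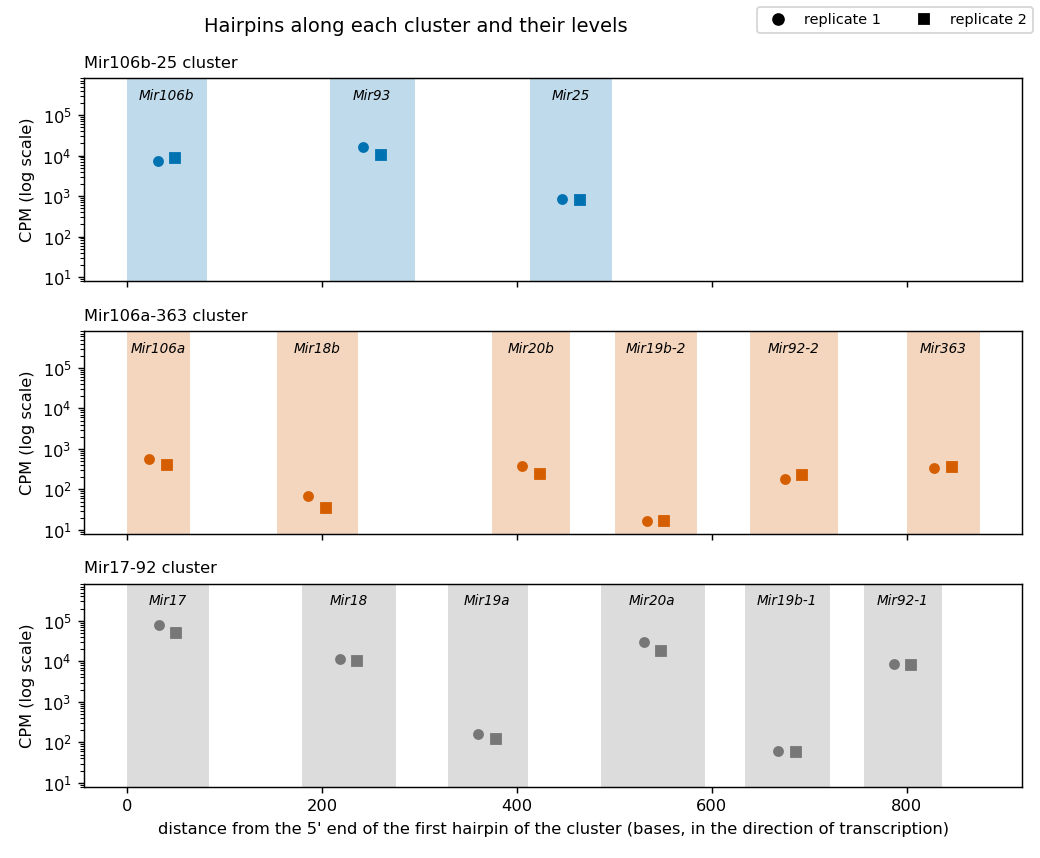
Hairpins of each cluster (shaded) along the direction of transcription, in bases from the 5′ end of the first hairpin, with the CPM of each gene (log axis) in replicate 1 (circles) and replicate 2 (squares). Low genes sit between higher ones, such as Mir18b (67.3 and 34.1 CPM) between Mir106a and Mir20b.

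Set against Mir17-92, the closest relative, both clusters were lower, by sizes that differed widely. Mir106b-25 had 2.44% of the assigned counts in replicate 1 and 2.00% in replicate 2, against 12.7% and 8.78% for Mir17-92. That made its counts 19.2% of those of Mir17-92 in replicate 1 (95% exact binomial interval 19.1 to 19.4) and 22.8% in replicate 2 (22.5 to 23.1). Mir106a-363 had 0.154% and 0.127% of the assigned counts, which was 1.21% (1.18 to 1.25) and 1.44% (1.38 to 1.51) of Mir17-92. The X-linked cluster stood at 6.32% of Mir106b-25 in both libraries (intervals 6.15 to 6.50 and 6.04 to 6.61). A permutation test over 2 libraries cannot pass a 0.05 threshold, so these ratios are given without a p-value, and both libraries showed each direction.

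Paralogue by paralogue, the X-linked genes with the miR-17 and miR-18 seeds lay furthest below Mir17-92. Mir106a was 138-fold lower than Mir17 in replicate 1 and 130-fold lower in replicate 2, and Mir18b was 174-fold and 297-fold lower than Mir18. Mir106a thus had 0.727% of the Mir17 count in replicate 1 and 0.771% in replicate 2, where Mir17 itself stood at 77281 and 51029 CPM. Mir20b had 1.31% and 1.28% of the Mir20a count, and Mir20a had 29234 and 18331 CPM. Mir18b had 0.576% and 0.336% of the count of Mir18, which stood at 11673 and 10131 CPM. Among the Mcm7 genes, Mir93 had 55.5% and 57.7% of the Mir20a count, Mir106b 9.44% and 16.99% of the Mir17 count, and Mir25 9.85% and 9.74% of the count of Mir92-1. Mir92-1 had 8411 and 8141 CPM. The guide of Mir93 has 4 differences to both Mir17 and Mir20a, and that of Mir106b 3 to both, so these pairings are a choice. Set against the more abundant Mir17, Mir93, at 16236 and 10570 CPM, would have a smaller share. Set against Mir20a, Mir106b would have a larger one. The ratio of Mir106b to Mir17 moved between the libraries by far more than counting error (intervals 9.32 to 9.57 and 16.7 to 17.3), while the interval of Mir20b to Mir20a in replicate 1 (1.24 to 1.38) lay inside that of replicate 2 (1.16 to 1.42).

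Counts of 2 members cannot be read as the amount of their mature microRNA. The guide of Mir19b-2 is identical to that of Mir19b-1, and the guide of Mir92-2 to that of Mir92-1. The limit holds for Mir19b-1 and Mir92-1 too, for ratios to their counts, and for cluster sums and ratios that include these genes. A read of such a guide fits both genes of its pair. The files list reads mapping to several places apart from the genes, and a read of this kind would fall there if only uniquely mapped reads were counted, which no source used here states. The full hairpins are shown to mark how far the copies match, with the longest stretch that each pair shares in capitals, from chromosome X for the members and chromosome 14 for the Mir17-92 genes:
Mir19b-2: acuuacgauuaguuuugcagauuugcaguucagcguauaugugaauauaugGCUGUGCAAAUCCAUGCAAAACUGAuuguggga
Mir19b-1: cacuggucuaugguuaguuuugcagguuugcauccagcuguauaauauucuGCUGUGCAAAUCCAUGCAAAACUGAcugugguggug
Mir92-2: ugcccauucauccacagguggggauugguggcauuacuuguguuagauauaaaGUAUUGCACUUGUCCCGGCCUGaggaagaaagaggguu
Mir92-1: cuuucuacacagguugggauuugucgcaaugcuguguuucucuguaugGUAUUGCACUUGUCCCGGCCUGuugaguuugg

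The shared stretch of the Mir19b pair has 25 bases and holds the whole guide of 23 bases. That of the Mir92 pair has 22 bases around a guide of 21. Both stretches end where the annotated guide ends, so a read that keeps 1 more genomic base at its 3′ end fits only 1 gene of the pair. Mir92-2 had 2.13% of the Mir92-1 count in replicate 1 and 2.82% in replicate 2, and Mir19b-2 had 28.6% (95% exact binomial interval 20.95 to 38.6) and 29.3% (18.4 to 45.5) of the Mir19b-1 count. Mir19b-1 itself stood at 59.5 and 58.1 CPM. Mir19a, whose guide is in no other hairpin searched, was also low, at 160 and 119 CPM. For the other 7 members no guide or passenger arm listed in RefSeq was found whole in another of the 869 counted hairpins with a sequence. The longest exact match of a guide among them was 17 bases, between Mir18b and Mir18. Only exact matches were searched, and the mismatches allowed in alignment are not known. The guide of Mir106a differs from that of Mir17 at 1 position, and that of Mir20b from that of Mir20a at 2. Whether misread Mir17 or Mir20a reads are part of the far lower Mir106a and Mir20b counts was not tested.

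Summed by seed, the members held their largest share in the miR-17 seed. Of the counts with that seed over the 3 clusters, Mir106b and Mir93 held 19.8 ± 2.54% and Mir106a with Mir20b held 0.713 ± 0.0117% (SD, n = 2). The rest belonged to Mir17 and Mir20a, at 79.5 ± 2.53%. Of the other counted genes with a RefSeq entry, Mir6383 alone carries this seed, and it had 0 counts in both libraries. Within the miR-92 seed, Mir25 held 8.41 ± 0.122% and Mir92-2 with Mir363 held 5.70 ± 0.639%. Mir363, whose guide is found in no other counted hairpin, had 40.2% and 44.9% of the Mir25 count. It had 3.96% and 4.37% of the Mir92-1 count, which is itself limited by the identical guide of Mir92-2. Mir32, Mir92b and Mir367, which carry the miR-92 seed elsewhere in the genome, had 311 ± 106, 229 ± 33.3 and 1.71 ± 1.15 CPM, so Mir25 stood above each of them in both libraries. Mir18b held 0.454 ± 0.168% of the miR-18 seed and Mir19b-2 7.996 ± 1.13% of the miR-19 seed. The shares of the miR-19 and miR-92 seeds involve the copies with identical guides.

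**Figure D3:**
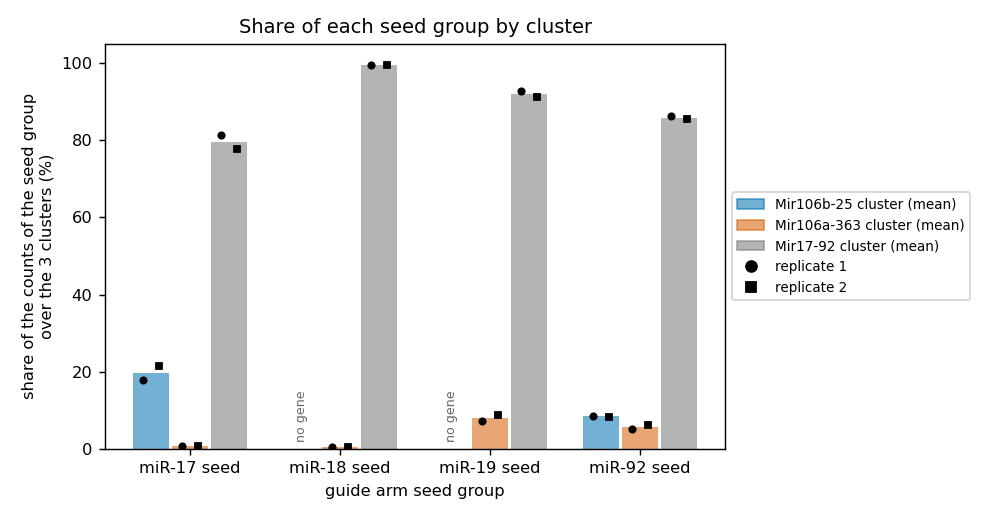
Share of the counts of each seed group over the 3 clusters (%, axis from 0) held by each cluster, with bars for the mean, circles for replicate 1 and squares for replicate 2. Mir106b-25 reaches 19.8% of the miR-17 seed and 8.41% of the miR-92 seed, and it has no gene with the miR-18 or miR-19 seed.

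The libraries are replicates of 1 condition, and the members were compared between them to show their spread. A two-sided exact binomial test was made for each gene of its share of the counts in replicate 1 against replicate 2, with Benjamini-Hochberg adjustment over the 454 genes with at least 10 summed counts. This test knows only counting noise and says nothing of a condition. A gene counted as called when its adjusted p was below 0.05 and its difference at least 2-fold. Of the 9 members 0 were called, where 7.27% of all tested genes were called. With no minimum fold, at the adjusted p alone, 6 of the 9 passed, against 49.1% of all tested genes. Of the members, 4 were higher in replicate 1, against 23.1% of all tested genes, and 2 in replicate 2, against 26% of them. The edgeR exact test with an assumed coefficient of variation of 0.2 called 1 of all 454 genes, so its 0 calls among the members say little. The median size of the log2 ratio was 0.42 over the members and 0.42 over all tested genes, on a scale where 1 is 2-fold. The tested genes reach down to 10 summed counts, so these medians and the percentages above do not compare genes of like depth. Over the 257 better counted genes, averaging 100 or more counts per library, the median size was lower, at 0.35. Mir19b-2 is not among them. Shares of the cell type marker lists also differed between the pools, in both directions, some by little. The endothelial Mir126a held 5.74% of the counts in replicate 1 and 8.01% in replicate 2, and the erythroid pair, Mir144 and Mir451a, 0.795% and 1.10%. The 4 mesenchymal genes held 2.19% and 3.29%, where Mir143 was higher in replicate 2 (11472 and 23595 CPM) and Mir214 in replicate 1 (9911 and 8782 CPM). Mir145a (475 and 478 CPM) and Mir199a-1 (8.67 and 8.84 CPM) were nearly level, so the rise of this list came from Mir143. The 3 hepatocyte genes held 3.30% and 3.69%, with Mir194-2 higher in replicate 1 (1423 and 814 CPM). The leukocyte list, without Mir142, which was not counted, held 0.498% and 0.512%. Higher in replicate 1 were the sums of the lists for pluripotent cells (0.444% and 0.396%), striated muscle (0.0602% and 0.0482%) and neural cells (0.0130% and 0.0116%). In the pluripotent list, Mir302a, Mir302c and Mir302d were higher in replicate 1 by CPM. Mir302b (924 and 993 CPM) and Mir367 (0.897 and 2.52 CPM) were higher in replicate 2. The muscle difference came mainly from Mir208a (272 and 157 CPM), with Mir208b at 331 and 324 CPM. Mir1a-1, Mir133a-1 and Mir9-2 were at 0 and Mir124-2 was not counted, so Mir128-1 alone made up the neural value. Mir128-1 did not pass the exact binomial test (adjusted p = 0.58). Other genomic copies of the marker sequences were not searched, so a 0 was not read as absence of the microRNA. The part of these markers in the differences between the pools was not tested.

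**Figure D4:**
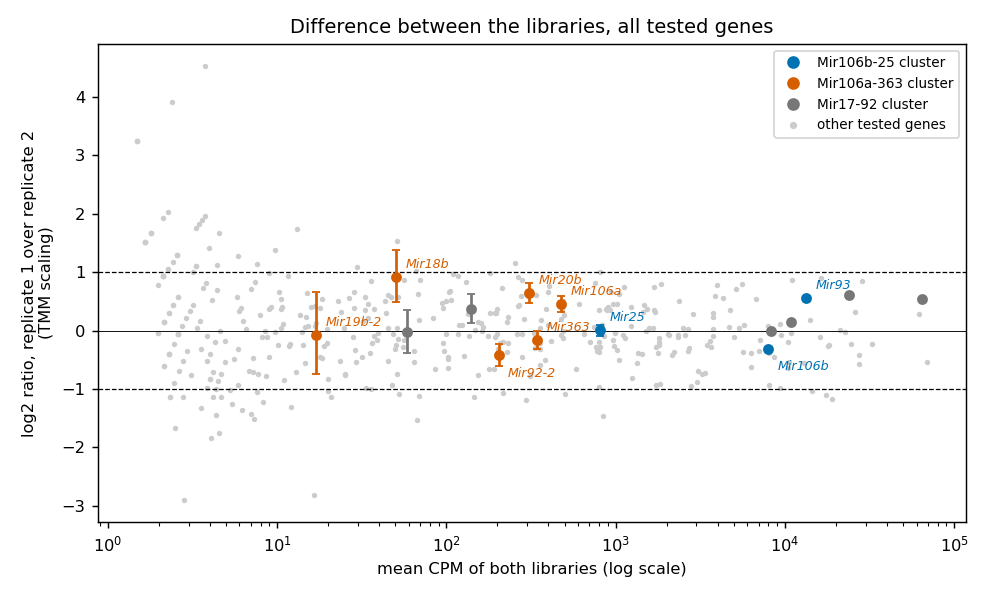
Log2 ratio of replicate 1 over replicate 2 (TMM scaling) against mean CPM (log axis) for the 454 tested genes, with the 3 clusters in colour and bars for the 95% exact binomial interval. All 9 members lie between the dashed 2-fold lines, from -0.42 for Mir92-2 to 0.91 for Mir18b.

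Between the pools, genes of 1 cluster differed in direction. Mir93 was higher in replicate 1 by 0.56 on the log2 scale and Mir106b lower by a ratio of -0.31 (adjusted p = 1.9e-87, exact binomial test), although both come from the same intron. The Mir106b count was 44.9% of that of Mir93 in replicate 1 (interval 44.3 to 45.6) and 82.0% in replicate 2 (80.2 to 83.9). On the X chromosome, Mir20b (0.64, adjusted p = 2.3e-14), Mir106a (0.45, adjusted p = 1.5e-11) and Mir18b (0.91, adjusted p = 3.1e-05) were higher in replicate 1 by the exact binomial test, and Mir92-2 was higher in replicate 2 (-0.42, adjusted p = 4.8e-05). Mir25 (0.00), Mir363 (-0.16, adjusted p = 0.069) and Mir19b-2 (-0.08) did not pass the exact binomial test.

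The 5 genes whose guide has the miR-17 seed and ends in the same 8 bases (GCAGGUAG) come from all 3 clusters. Their log2 ratios were 0.45 for Mir106a, 0.54 for Mir17, 0.56 for Mir93, 0.61 for Mir20a and 0.64 for Mir20b. Mir106b, the remaining gene with this seed, has a guide that ends in GUGCAGAU and had a ratio of -0.31. The 4 genes of the 3 clusters with the miR-92 seed had ratios from -0.42 to 0.00. Outside the clusters, Mir32 of this seed had -0.77 and Mir92b -0.36, and Mir367 had too few counts to be tested. Genes of the other seeds all have guides of 23 bases. Mir18b had 0.91 and Mir18 0.14, with intervals that lay apart (0.49 to 1.38 and 0.12 to 0.17). Mir19b-2 had -0.08, Mir19b-1 -0.03 and Mir19a 0.37. The 3 miR-19 guides also share their last 8 bases (AAAACUGA). Their intervals overlapped (-0.75 to 0.66, -0.39 to 0.35 and 0.13 to 0.62), so these counts cannot tell whether their ratios differ. The counts of Mir19b-2 and Mir19b-1 also carry the limit of their identical guide. Mir92-1 and Mir92-2, whose guides are identical, had -0.01 and -0.42. The grouping by seed and last bases was noticed after the values were seen, rests on 1 pair of libraries, and its source was not tested.

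**Figure D5:**
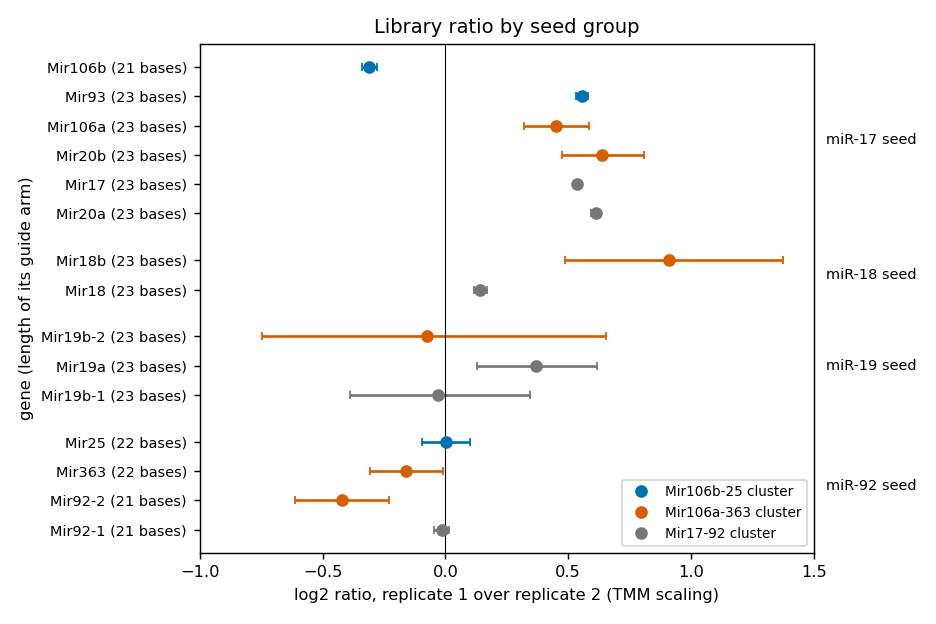
Log2 ratio of replicate 1 over replicate 2 with the 95% exact binomial interval for each gene of the 3 clusters, grouped by the seed of the guide, with the length of the guide in brackets. In the miR-17 seed group the 5 genes with guides of 23 bases lie at 0.45 to 0.64, and Mir106b, with 21 bases, lies at -0.31.

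The genes nearest in level were found for the leading member of each cluster by the distance of log2(CPM + 1) over the 2 libraries. For Mir93 these were Mir127 at 15276 and 12867 CPM, Mir541 at 21440 and 11020 CPM and Mir18 at 11673 and 10131 CPM. Mir127 and Mir541 are imprinted microRNAs of the Dlk1-Dio3 region. For Mir106a they were Mir770 at 586 and 397 CPM, Mir199b at 556 and 413 CPM and Mir96 at 554 and 440 CPM. Likeness in level over 2 libraries is a description and says nothing of shared control. On the opposite strand, the members had 2 reads in replicate 1 and 1 in replicate 2.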

How the data were processed

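The deposited files hold unnormalised read counts for each microRNA gene in 3 columns (either strand, strand of the gene, opposite strand). Reads were aligned to mm10 and counted over GENCODE M4, per the deposited file descriptions. For the aligner, counter and trimming, a name or version was not given in the sources used here. The strand meaning of the columns was read from the values, and the counting of uniquely mapped reads only from the summary classes. The 4 summary classes that name no gene stayed out of library sizes. Of 12750572 and 5471247 reads in replicates 1 and 2, 26.2% and 29.0% were assigned on the strand of the gene.

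Genes were named from GENCODE M21, on the same assembly, by Ensembl identifier. All 9 members matched with the same version, as did 1815 of the 1973 counted genes. Because 1 group has no contrast, edgeR's quasi-likelihood test could not be run. edgeR 4.0.16 (R 4.3.3) supplied trimmed mean of M values (TMM) factors, computed over genes with at least 10 summed counts, and DESeq2 1.42.0 alternative size factors. The log2 ratio used 0.5 added to each count. Python 3.11.15, scipy 1.17.1 and pandas 2.3.3 did the rest. The binomial procedure was tested on simulated Poisson counts. These hold only the counting noise that the test assumes, so they say nothing of the spread between the pools. The members, lists and rules were chosen with earlier results of these data known. Named genes are the members, the Mir17-92 genes, the 3 genes nearest in level to the leading member of each cluster, liver markers and genes sharing a seed.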

Additional observations from a re-analysis of the deposited data

How the results depend on the processing

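No paired analysis was possible because all libraries belong to a single group. Taking all reads as denominator lowered the shares by construction, to 0.610% for Mir106b-25, 0.0385% for Mir106a-363 and 0.648% for the 9 members. Leaving out genes with an identical mature copy moved the ratio of Mir106a-363 to Mir106b-25 to 5.30%, because Mir19b-2 and Mir92-2 then drop out. With a minimum fold of 1.5 in place of 2, 2 members and 96 of 454 genes were called between the libraries, with no minimum fold 6 members and 223 genes, with at least 100 summed counts 0 of 8 members and 15 of 285 genes, and with the edgeR exact test 0 members and 1 gene. The other alternatives also called 0 members, beside 34 of 454 genes under total counts and under DESeq2 factors, 33 with a pseudocount of 1, 32 of 724 with no filter and 35 of 463 with reads of either strand. Single libraries gave 2.00 to 2.44% for Mir106b-25, 0.127 to 0.154% for Mir106a-363, 2.13 to 2.59% for all members, and 19.2 to 22.8%, 1.21 to 1.44% and 6.32% for the ratios of Mir106b-25 to Mir17-92, Mir106a-363 to Mir17-92 and Mir106a-363 to Mir106b-25. The level moved by more than its SD for 1 of 9 members with TMM scaling and for 3 of 9 with reads of either strand. That yardstick is strict where the SD is small. Mir19b-2, with an SD of 0.00137, moved only from 17.041 to 17.045 CPM with TMM scaling. With reads of either strand the level of every member was lower by construction. All genes together had 325639 and 167891 opposite-strand reads in replicates 1 and 2, which enlarge the denominator, and the members had 2 and 1. The log2 ratios of all 9 kept their direction and call under total counts, DESeq2 factors and a pseudocount of 1. A minimum of 100 counts in both libraries kept 7 members. Dividing by hairpin length, chosen after seeing the data, kept the order of the members. Removing identical copies from the miR-17 seed, also chosen then, tests nothing, since no gene with that seed has one. Depth limits Mir18b and Mir19b-2 most.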
